A study of Homo sapiens with 14 samples.

Results

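The sites described here lie in 10 genes for ribosomal proteins, namely RPS2, RPS3, RPS6, RPS15A and RPSA of the small ribosomal subunit, RPL3, RPL4, RPL5 and RPL8 of the large subunit, and RPLP0 of the stalk. They are the positions inside a fixed hg19 span around each gene that at least 1 of 14 libraries listed as edited from A to G. There were 176 such sites among 26172 in all. The cells were HEK293T, an established cell line from human embryonic kidney into which DNA is readily introduced. Their polyadenylated RNA was sequenced after the cells had received 1 of 4 RNA base editors. Such an editor converts adenosine in RNA to inosine, which sequencing reads as guanosine.

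The groups held 2 libraries each, and all of them carried an editor. REPAIRv2 was used with the guides NT and EZH2_A22, REPAIR.t1 with NT and EZH2_A22, dCas13d-ADAR with NT and EZH2, and DECOR with MALAT1 alone. REPAIRv2 joins a catalytically dead Cas13 protein to the deaminase domain of human ADAR2. The labels do not spell out NT, A22 or the make-up of DECOR, and the series title speaks of an evolved bacterial adenosine deaminase. REPAIRv2, REPAIR.t1 and dCas13d-ADAR are called the Cas13 editors below, a shorthand that does not say whether DECOR holds a Cas13 protein. The DECOR libraries were read for 62 and 160 cycles and all others for 25 and 97, so the editor, the guide and the read length of DECOR cannot be told apart. No group lacks an editor, so a listed site need not be the work of one. Whether the 2 libraries of a group are separate cultures is not in the labels. The p-values therefore rest on library-to-library spread that could be technical only.

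Ribosomal proteins assemble with ribosomal RNA into the machine that translates messenger RNA, and their transcripts are among the most abundant in growing cells. The small subunit reads the message and the large subunit joins the amino acids. The genes were chosen with these site lists in view, so the fact that they hold many sites is not a result, and their site numbers are given without a test. Ribosomal protein genes have many processed pseudogenes, and reads from near-identical copies could be placed at either, so single sites carry that uncertainty. The lists hold no strand. In RefSeq (assembly GRCh38.p14, used for neighbours only) 6 of the 10 genes contain small nucleolar RNA genes, RPL5 overlaps the protein-coding gene DIPK1A, and RPL8 overlaps a microRNA gene, so a site in a span may belong to such a neighbour. Exons, codons and neighbouring bases were not analysed here.

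REPAIRv2 listed no site in any of the 10 genes, while every library of the other editors listed sites in all 10. The REPAIRv2 lists were also short as a whole, at 46 to 101 sites per library, against 4356 to 5855 for the others. REPAIR.t1 libraries listed 33, 39, 37 and 42 sites in the spans, which is 37.8 ± 3.77 (mean ± SD, n = 4 libraries). dCas13d-ADAR libraries listed 44, 35, 42 and 43, which is 41.0 ± 4.08 (n = 4). These ranges overlap. DECOR libraries listed 68 and 90 (79.0 ± 15.6, n = 2), more than any Cas13 library. As a share of the library's own list, the spans held 0.814% ± 0.0895 for REPAIR.t1, 0.709% ± 0.0724 for dCas13d-ADAR and 1.38% ± 0.215 for DECOR. The larger number in DECOR lay among weakly edited sites. With a level of at least 0.2, where the level is the listed A-to-G rate as a fraction, REPAIR.t1 kept 13.3 ± 1.5 sites per library, dCas13d-ADAR 16.0 ± 1.41 and DECOR 15.0 ± 4.24. Read depth is unknown for libraries and sites alike. Absence from a list can thus reflect an adenosine that was not edited, a level under the authors' threshold or thin coverage.

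**Figure D1:**
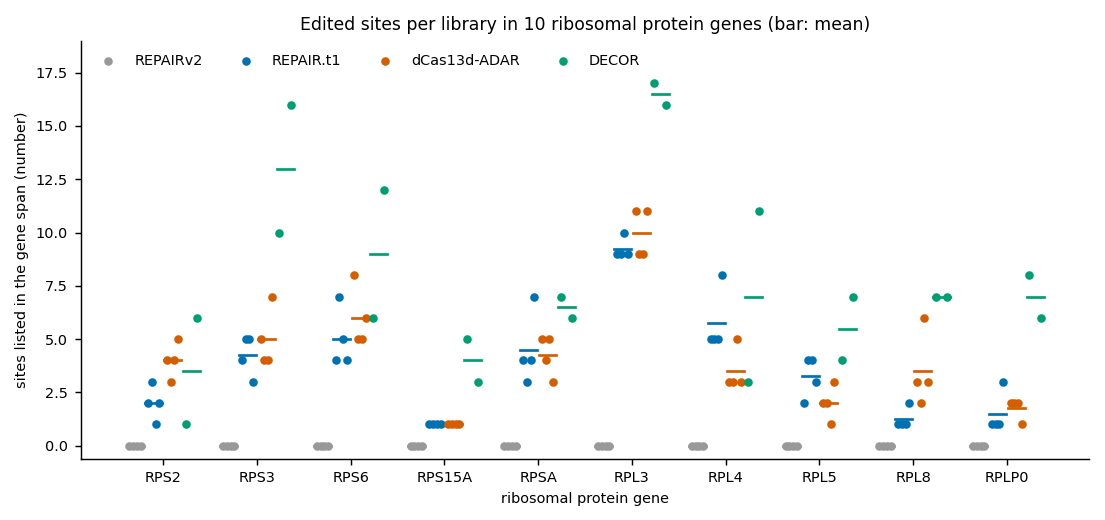
The vertical axis gives the number of sites listed inside each gene's span and the horizontal axis the gene; each point is 1 library, coloured by editor, and the bar is the editor's mean. REPAIRv2 points all lie at 0, and RPL3 has the most sites for every other editor, with 16 and 17 in the DECOR libraries.

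The genes differed widely in how many sites they held and in which editor listed them. RPL3, a protein near the catalytic centre of the large subunit, held 34 sites, RPS3, which lines the channel where messenger RNA enters, 23, and RPS6, the small-subunit protein phosphorylated by S6 kinases, 22. RPL4, which lines the exit tunnel of the growing chain, held 20, RPSA 18, RPL8 15, RPL5 and RPLP0 13 each, RPS2 12 and RPS15A 6. Per kilobase of span the density ran from 0.779 sites in RPS15A to 5.27 in RPL8. The spans include introns and their edges are not those of transcripts, so densities compare spans and not messages. RPS15A held 1 site of the Cas13 editors, which each of the 8 REPAIR.t1 and dCas13d-ADAR libraries listed, and 6 of DECOR. RPLP0, which anchors the stalk that recruits translation factors, held 3 and 10. RPS2 held 6 and 6, and RPL8 9 and 8. Numbers of distinct REPAIR.t1 and dCas13d-ADAR sites also differed in some genes, picked out after their values were seen. RPL8 held 2 distinct REPAIR.t1 sites and 9 of dCas13d-ADAR, while RPL4 held 9 and 5. Of all sites in these genes, 7 in RPL8 and 12 in RPL4 were listed by a single library of any editor. Per library, RPL8 had 1.25 ± 0.5 sites with REPAIR.t1 (1 to 2) and 3.50 ± 1.73 with dCas13d-ADAR (2 to 6; SD, n = 4 each). RPL4 had 5.75 ± 1.5 (5 to 8) and 3.50 ± 1.00 (3 to 5), and RPS2 had 2 ± 0.816 (1 to 3) and 4 ± 0.816 (3 to 5). The ranges of the editors thus met in each of these genes. The hg19 spans of the small-subunit genes are chr16:2012062-2014827 for RPS2, chr11:75110500-75117000 for RPS3, chr9:19375713-19380252 for RPS6, chr16:18794000-18801700 for RPS15A and chr3:39448180-39454033 for RPSA. Those of the large subunit are chr22:39708887-39716394 for RPL3, chr15:66790801-66797221 for RPL4, chr1:93297582-93307481 for RPL5 and chr8:146015154-146018000 for RPL8, and that of RPLP0 is chr12:120634489-120639038.

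Few sites lay close to the edges of the spans on the outside. Within 5000 bases outside, 9 sites were listed, of which 6 lay below the RPS2 span at 197 to 872 bases from its edge, with mean levels of 0.122 to 0.204, 1 below RPL4 and 2 above RPS15A. Just inside, the outermost RPS2 sites lay 135 and 151 bases from the edges, at 0.127 and 0.241. The outermost RPL3 site at the low edge lay 75 bases inside it, at 0.130.

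DECOR and the Cas13 editors listed mostly different adenosines, often close to each other in the same stretch of the gene. Of the 176 sites, 68 were listed by Cas13 editors alone, 99 by DECOR alone and 9 by both. The 9 shared sites are 8.33% of the 108 DECOR sites and 11.7% of the 77 Cas13 sites. Over all lists the shared sites are 3.75% of DECOR sites and 2.03% of Cas13 sites. The median distance from a DECOR-only site to the nearest REPAIR.t1 or dCas13d-ADAR site was 56 bases in the 10 genes and 184 bases in the whole series, and 44 of the 99 (44.4%) lay within 50 bases, against 29.7% of 8955 in the whole series. When sites no more than 100 bases apart were joined, 158 of the 176 fell into 40 clusters of at least 2 sites. Of these clusters 28 held sites of both kinds, 9 DECOR sites alone and 3 Cas13 sites alone. Of the 176 sites, 79 were listed by a single library. Clusters were not formed over the whole series, so these counts do not set the genes apart from it. The largest, in RPL3, held 11 sites within 132 bases (chr22:39710696-39710827), of which 8 were listed by Cas13 editors alone, 2 by DECOR alone and 1 by both. An RPL8 cluster of 6 sites within 71 bases (chr8:146016672-146016742) held 5 Cas13 sites and 1 shared site. No REPAIR.t1 library listed any of these 6 sites, and the dCas13d-ADAR levels there were 0.0755 to 0.153. Positions 146016674, 146016681 and 146016697 were in dCas13d-ADAR EZH2 replicate 1 alone, and 146016742 in dCas13d-ADAR NT replicate 2 alone. An RPL3 cluster of 5 sites within 98 bases (chr22:39712745-39712842) was DECOR's alone. Sites in denser sets are closer to each other by number alone, and the part of site density in these distances was not tested.

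**Figure D2:**
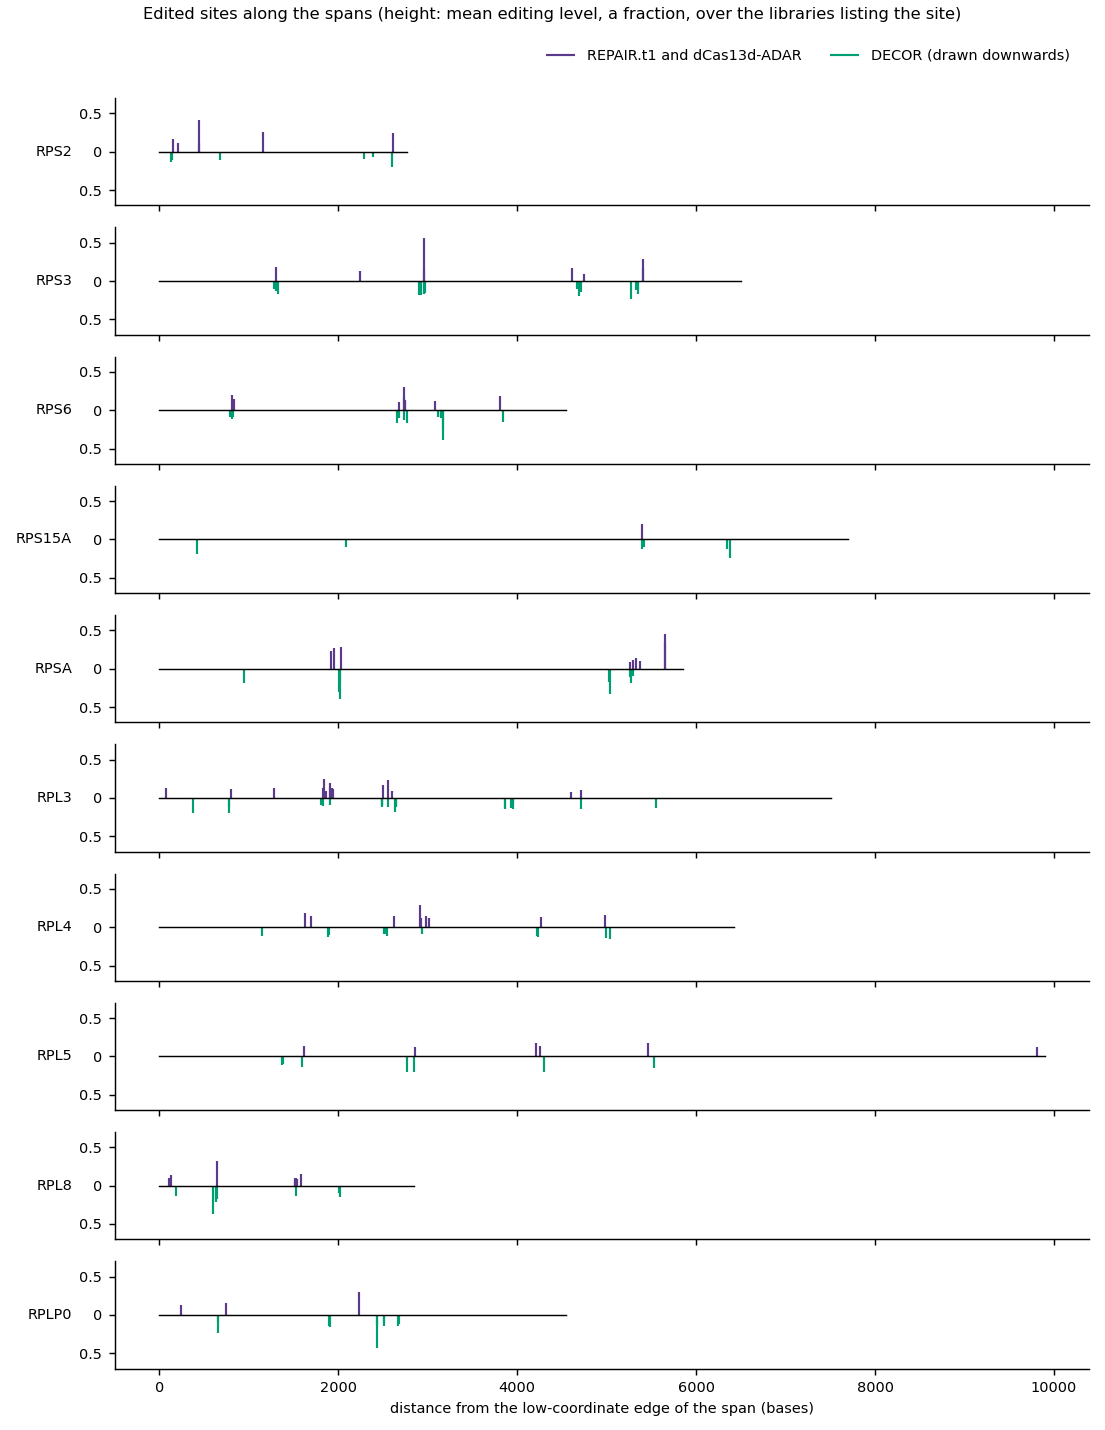
Each row is a gene span, drawn to scale from its low-coordinate edge in bases; each line is 1 site, with its height the mean level over the libraries listing it, upwards for REPAIR.t1 and dCas13d-ADAR and downwards for DECOR. Lines of both kinds cluster at the same places in most genes, and the tallest upward line is the RPS3 site 2960 bases into its span.

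The Cas13 sites of these genes recurred from library to library. Of the 77, 17 (22.1%) were listed by all 8 REPAIR.t1 and dCas13d-ADAR libraries, against 3.54% of 17194 sites in the whole series. Sites listed by 1 of the 8 libraries made up 31.2% here and 48.7% there. REPAIR.t1 had 57 distinct sites in the spans and dCas13d-ADAR 63, of which 43 were common. That is 75.4% of the REPAIR.t1 sites and 68.3% of the dCas13d-ADAR sites, against 54.5% and 47.0% over all lists. Any REPAIR.t1 library shared 24 to 31 sites in the spans with any dCas13d-ADAR library (16 pairs). The 2 DECOR libraries shared 50 of 108 sites (46.3%), against 22.2% over all their sites. These shares are a description, since the genes were chosen from the same lists. The 17 recurrent sites fell in 9 of the 10 genes, with 5 in RPL3, 3 in RPS6, 2 each in RPS3 and RPSA, 1 each in RPS2, RPS15A, RPL4, RPL8 and RPLP0, and 0 in RPL5.

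**Figure D3:**
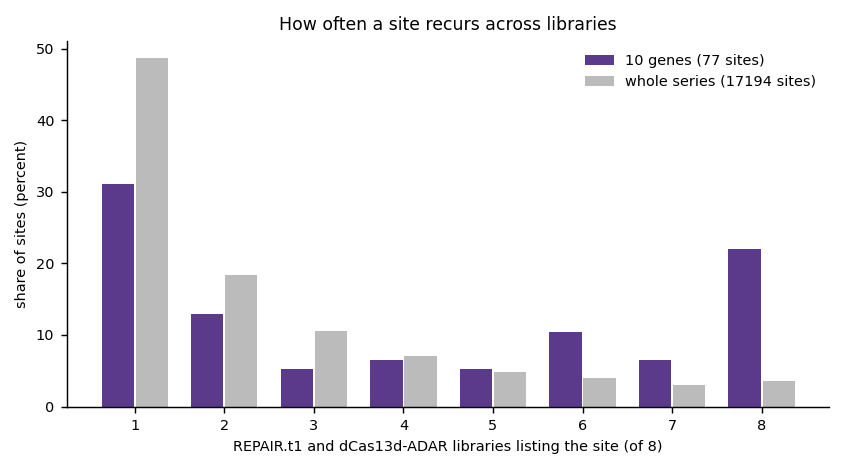
The horizontal axis counts how many of the 8 REPAIR.t1 and dCas13d-ADAR libraries list a site and the vertical axis gives the percent of sites, for the 77 sites in the 10 genes and for 17194 sites in the whole series. The bar at 8 libraries reaches 22.1% for the ribosomal protein genes and 3.54% for the series.

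Editing levels in these transcripts were low for their libraries. The REPAIR.t1 libraries had a median level in the spans of 0.164 ± 0.0142 (SD over libraries, n = 4). The dCas13d-ADAR libraries had 0.165 ± 0.0178 (n = 4), and the DECOR libraries had 0.140 ± 0.00801 (n = 2). The medians of the whole lists were 0.256 ± 0.00700, 0.266 ± 0.00249 and 0.209 ± 0.00155. In each of the 10 libraries the median in the spans lay below that of the whole list. Sites below 0.2 made up 64.8% of the REPAIR.t1 sites in the spans, 60.5% for dCas13d-ADAR and 80.1% for DECOR, against 26.2%, 24.3% and 43.8% of the whole lists. The difference was not limited to sites seen once. Among sites listed by all 8 libraries the median of the mean level was 0.234 for the 17 in the spans and 0.338 for all 609. Among sites listed by 1 library the medians were 0.126 for 24 sites and 0.250 for 8372. Coverage per site is not in the lists, and its part in these levels was not tested.

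**Figure D4:**
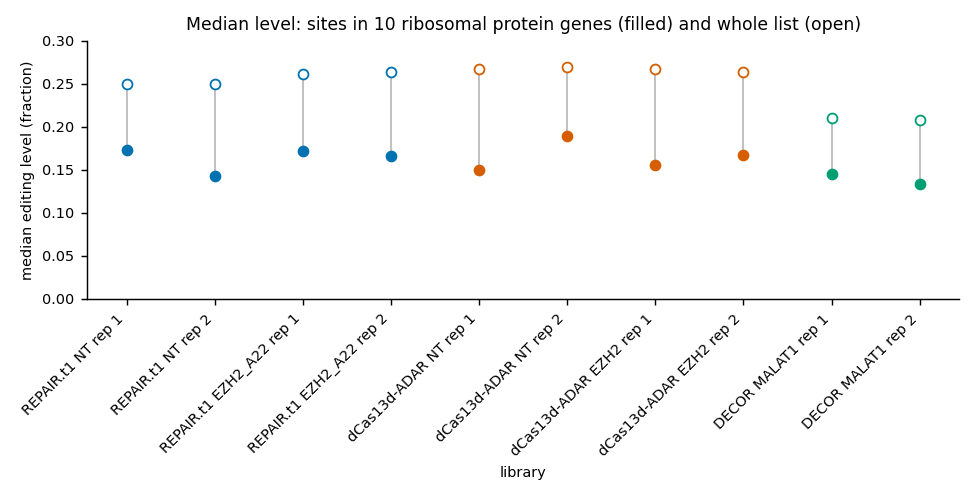
The vertical axis gives the median editing level as a fraction for each of the 10 libraries with sites in the spans; filled circles are the sites in the 10 genes and open circles the library's whole list. The filled circle lies below the open one in every library, at 0.134 to 0.190 against 0.208 to 0.269.

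The highest mean level with the Cas13 editors was at a single adenosine of RPS3, at position 75113460 on chromosome 11, 2960 bases into the span. REPAIR.t1 libraries gave 0.531 and 0.604 with NT and 0.444 and 0.415 with EZH2_A22. dCas13d-ADAR libraries gave 0.660 and 0.569 with NT and 0.660 and 0.619 with EZH2. Both DECOR libraries listed the same position, at 0.2 and 0.136. The DECOR values lay below all 8 others, while those of REPAIR.t1 and dCas13d-ADAR overlapped. A second RPS3 site, at position 75111800, was also in all 10 of these libraries, at 0.115 to 0.176 with REPAIR.t1, 0.184 to 0.255 with dCas13d-ADAR and 0.134 and 0.136 with DECOR. It was the one site of the 17 at which all dCas13d-ADAR libraries lay above all REPAIR.t1 libraries. RPS3 also held a DECOR site at position 75115766, at 0.254 and 0.209, which had the highest mean level of those that both DECOR libraries listed in this gene.

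In RPS2, a protein at the messenger RNA entry side of the small subunit, position 2012503 on chromosome 16 was edited at 0.377, 0.420, 0.234 and 0.333 in the REPAIR.t1 libraries. The dCas13d-ADAR libraries gave 0.579, 0.451, 0.480 and 0.412 there, of which the lowest fell just below the highest REPAIR.t1 value. The base next to it, 2012504 (here and below, the neighbours of a site were picked out after their values were seen), was listed by 6 of these libraries and was lower in all 6, with a mean of 0.117 against 0.411 for 2012503. Position 2012211 was listed by 6 libraries at 0.119 to 0.237. The only RPS2 site in both DECOR libraries was position 2012739, at 0.0909 and 0.114. RPS2 had no site common to DECOR and another editor.

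RPS6 had 3 sites in all 8 libraries. Position 19378447 on chromosome 9 ranged from 0.237 to 0.300 with REPAIR.t1 and from 0.275 to 0.392 with dCas13d-ADAR, and 1 DECOR library listed it at 0.129. Position 19378444, 3 bases away, had the lower level in each of the 8 libraries, with a mean of 0.170 against 0.298. Position 19376525 ranged from 0.133 to 0.264. A strong DECOR site, position 19378883, stood at 0.406 and 0.382 and was in no list of another editor. RPS15A, a small-subunit protein bound to the ribosomal RNA, had its one Cas13 site at position 18799396 on chromosome 16. REPAIR.t1 libraries gave 0.148, 0.137, 0.283 and 0.143 there, dCas13d-ADAR libraries 0.179 to 0.273 and DECOR libraries 0.136 and 0.111. Its highest site by mean level in both DECOR libraries was position 18794415, at 0.256 and 0.133.

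RPSA, also known as a laminin receptor, had the 2 recurrent positions 39450103 and 39450133 on chromosome 3, 30 bases apart. The first ranged from 0.169 to 0.286 over the 8 libraries and the second from 0.143 to 0.426. DECOR listed positions 39450192 and 39450194 in the same stretch, at 0.2 and 0.406 for the former and 0.348 and 0.448 for the latter. Position 39453835, singled out after its values were seen, reached 0.667 in 1 dCas13d-ADAR library, the highest level of any site in the spans. It was listed by 5 libraries, at 0.357 to 0.667. Neither NT library of REPAIR.t1 listed it, nor did dCas13d-ADAR EZH2 replicate 2, while both dCas13d-ADAR NT libraries did, at 0.357 and 0.667.

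RPL3 held the most sites. Position 39711447 on chromosome 22 was in all 10 libraries, at 0.173, 0.105, 0.227 and 0.238 with REPAIR.t1, 0.214, 0.279, 0.267 and 0.367 with dCas13d-ADAR, and 0.107 and 0.133 with DECOR. The adjacent bases 39710791 and 39710792 were both in all 8 REPAIR.t1 and dCas13d-ADAR libraries. The first was the higher in each of the 8, with means of 0.192 and 0.126. One DECOR library also listed 39710792, at 0.0959. Position 39713594 was in both DECOR libraries, at 0.141 and 0.143, and in 1 dCas13d-ADAR library at 0.103. The RPL3 site with the highest mean in both DECOR libraries was 39709267, at 0.184 and 0.213. Position 39710827 was in all 4 dCas13d-ADAR libraries, at 0.0952 to 0.145, and in no REPAIR.t1 library. That pattern was seen at 1 of the 77 REPAIR.t1 or dCas13d-ADAR sites in the spans and at 178 of 17194 in the series. The reverse pattern was seen at 0 of the 77 and 79 of the 17194. These counts do not set the genes apart from the series.

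In RPL4, position 66793719 on chromosome 15 ranged from 0.224 to 0.440 with REPAIR.t1 and from 0.227 to 0.372 with dCas13d-ADAR. Position 66793721, 2 bases away, was lower in each of the 7 libraries with both. Position 66792434 was listed by 7 libraries at 0.114 to 0.234, and the site with the highest mean in both DECOR libraries, 66795839, stood at 0.145 and 0.175. RPL5, which carries the smallest ribosomal RNA into the large subunit and can bind MDM2, had no site in all 8 libraries. Its most recurrent positions were 93301788 on chromosome 1, in 7 libraries at 0.109 to 0.250, and 93301839, in 6 at 0.119 to 0.184. Its highest site by mean level in both DECOR libraries, 93300351, stood at 0.214 and 0.194.

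RPL8, another protein near the catalytic centre, had position 146015798 on chromosome 8 in all 10 libraries. REPAIR.t1 libraries gave 0.319 to 0.333, the narrowest spread of the 17 sites, dCas13d-ADAR libraries 0.222 to 0.386 and DECOR libraries 0.175 and 0.176. DECOR listed position 146015758, 40 bases below, at 0.394 and 0.343. Position 146016676 was in both DECOR libraries, at 0.125 and 0.138, and in 2 dCas13d-ADAR libraries at 0.0755 and 0.0980. In RPLP0, position 120636721 on chromosome 12 gave 0.346, 0.333, 0.258 and 0.188 with REPAIR.t1 and 0.185, 0.280, 0.382 and 0.393 with dCas13d-ADAR. Position 120636923, a DECOR site in no other list, stood at 0.519 and 0.349 and had the highest mean DECOR level in the spans, 0.434 ± 0.120 (SD, n = 2). Position 120634733 was listed by 3 Cas13 libraries at 0.108 to 0.146.

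At the 17 sites listed by all libraries of both editors, dCas13d-ADAR and REPAIR.t1 did not differ past the test. None of the 17 had an adjusted p below 0.05 when limma was fitted to the log2 odds of 609 sites, and 3 of the 17 (17.6%) had an unadjusted p below 0.05, against 158 of the 609 (25.9%). Of the 609, 7.22% passed, 6.57% with the higher level in dCas13d-ADAR and 0.657% with the lower. The mean level over the 17 was 0.270 with dCas13d-ADAR and 0.248 with REPAIR.t1, and over the 609 it was 0.370 and 0.320. dCas13d-ADAR had the higher mean at 11 of the 17 and at 74.7% of the 609, with a median difference of 0.0288 and 0.0496. Groups did not overlap, with dCas13d-ADAR higher, at 1 of the 17 and at 11.5% of the 609, and with dCas13d-ADAR lower at 0 of the 17 and at 1.81% of the 609. The largest differences were in RPS2 at 2012503 (log2 odds difference 0.84, SE 0.36, limma adjusted p = 0.126), RPS3 at 75113460 (0.75, SE 0.36, limma adjusted p = 0.178) and RPL3 at 39711447 (0.79, SE 0.36, limma adjusted p = 0.156). The next were RPS3 at 75111800, by 0.0720 in level, and RPS6 at 19378447, by 0.0512. On the other side, where REPAIR.t1 had the higher mean, the level of dCas13d-ADAR minus that of REPAIR.t1 was -0.0812 at RPL3 39710724, -0.0683 at RPSA 39450133, -0.0514 at RPL3 39711391, -0.0352 at RPL3 39710791 and -0.0205 at RPL8 146015798. Single libraries moved these values. With 1 library left out, the log2 odds difference ranged from -0.99 to -0.13 at RPL3 39710724, nearest 0 without REPAIR.t1 NT replicate 2, and from -0.74 to -0.11 at RPSA 39450133, nearest 0 without REPAIR.t1 EZH2_A22 replicate 2. It ranged from -0.76 to -0.26 at RPL3 39711391, from -0.61 to -0.07 at RPL3 39710791, and from -0.28 to 0.0061 at RPL8 146015798, where the direction turned without dCas13d-ADAR EZH2 replicate 2. At RPS6 19378447 it ranged from 0.18 to 0.46. With 95% intervals such as 0.13 to 1.55 log2 units for RPS2 2012503, and -1.35 to 0.20 for RPL3 39710724, these data do not show the editors to act alike at these sites. Only sites that all 8 libraries list enter this test.

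**Figure D5:**
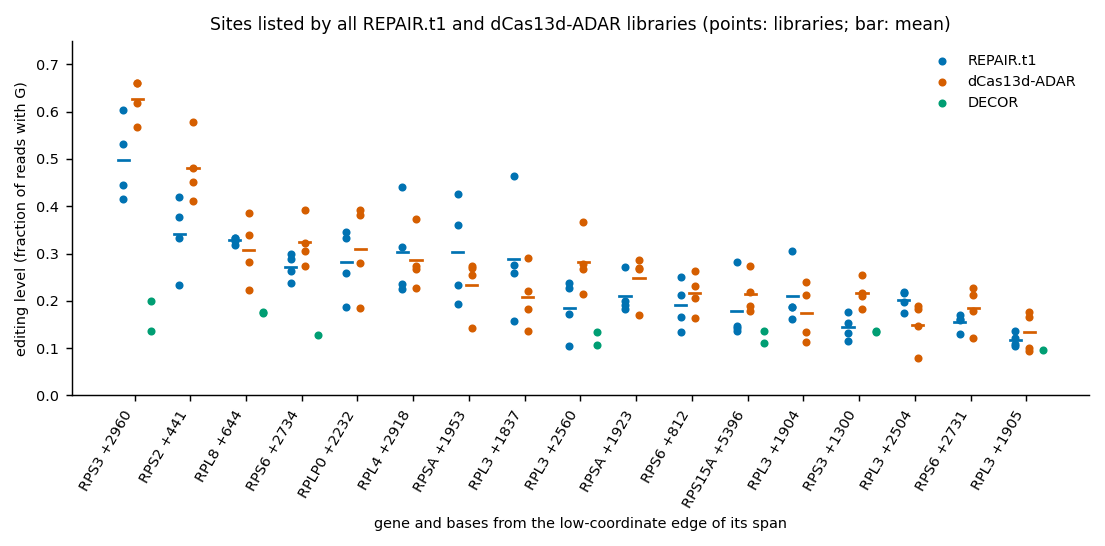
The vertical axis gives the editing level as a fraction at the 17 sites listed by all REPAIR.t1 and dCas13d-ADAR libraries, ordered by mean level and named by gene and bases from the low edge of the span; points are libraries, bars are means, and DECOR points appear where it lists the site. The points of REPAIR.t1 and dCas13d-ADAR overlap at 16 of the 17 sites, and DECOR points lie below those of dCas13d-ADAR at the 5 sites in both DECOR libraries.

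The 5 sites listed by every DECOR and every dCas13d-ADAR library were lower with DECOR. They were the 2 RPS3 sites, RPS15A 18799396, RPL3 39711447 and RPL8 146015798, and they make up 5 of the 25 sites in the whole series that all 6 libraries list. At RPS3 75113460 the level was 0.168 ± 0.0450 with DECOR (SD, n = 2) and 0.627 ± 0.0435 with dCas13d-ADAR (n = 4), a log2 odds difference of -3.00 (SE 0.32, limma adjusted p = 1.75e-05). At RPL3 39711447 it was 0.120 ± 0.0185 and 0.282 ± 0.0635, a difference of -1.44 (SE 0.34, limma adjusted p = 0.00439). RPL8 146015798 fell from 0.307 to 0.176 (limma adjusted p = 0.0372), RPS15A 18799396 from 0.215 to 0.123 (limma adjusted p = 0.0381) and RPS3 75111800 from 0.216 to 0.135 (limma adjusted p = 0.0460). Of the 25 sites 48% passed in this direction, and at 60% the libraries did not overlap. Both shares include the 5 sites in the spans, all of which passed without overlap. DECOR had the higher mean at 1 of the 25, so lower levels with DECOR were common among sites of this kind. RPS3 75113460 kept its call whichever library was left out. The RPL3 site lost its call without DECOR replicate 1 (limma adjusted p = 0.0814). The other 3 sites each lost theirs under 7 of 10 alternatives, and with each library left out in turn 1 to 3 of the 5 passed, with 1 left without DECOR replicate 1. DECOR and REPAIR.t1 had 19 sites common to every library of both, fewer than the 20 a test required here, so their values are given above without one. DECOR and dCas13d-ADAR differ here in guide and read length as well.

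No difference between the EZH2 and NT guides passed the test in these transcripts. REPAIR.t1 listed 33 and 39 sites in the spans with NT and 37 and 42 with EZH2_A22, and dCas13d-ADAR 44 and 35 with NT and 42 and 43 with EZH2. None of the 25 sites in the spans that all REPAIR.t1 libraries list passed in limma, where 0% of 1053 sites passed; 0 of the 25 had an unadjusted p below 0.05. None of the 24 sites for dCas13d-ADAR passed in limma, where 0% of 1665 passed, and 1 of the 24 had an unadjusted p below 0.05. Mean differences of EZH2 minus NT ran from -0.138 to 0.0935 for REPAIR.t1 and from -0.110 to 0.155 for dCas13d-ADAR, and these data do not show that the guides act alike. RPLP0 120636721, picked out here after its values were seen, moved oppositely in the editors. Its EZH2 libraries lay below its NT libraries with REPAIR.t1, at 0.223 and 0.340 on average, and above them with dCas13d-ADAR, at 0.388 and 0.233. Such separation was frequent, with EZH2 libraries all below NT at 13.0% of the 1053 REPAIR.t1 sites and all above at 15.1% of the 1665 dCas13d-ADAR sites. The difference of these guide effects was 1.89 log2 units of odds (SE 0.71), with EZH2_A22 and EZH2 taken as 1 kind of guide. It did not pass in limma (adjusted p = 0.518 over 609 sites, 0 of which passed). An unadjusted limma p below 0.05 was found at 41 of the 609 and at 1 of the 17 in the spans. The labels do not say whether EZH2_A22 and EZH2 are the same guide, so editor and guide cannot be told apart in this difference.

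DECOR sites in these genes often lay 1 to 3 bases from another DECOR site, most often 2. Of its 108 sites in the spans, 19 (17.6%) had another DECOR site exactly 2 bases away, against 5.87% of its sites in the whole series. At 1 base and at 3 bases the share was 7.41% each, against 1.12% and 3.53% in the whole series. Of these distances, 2 bases was thus the most frequent in the whole series as well. Among sites in both libraries the shares at 2 bases were 24.0% of 50 and 5.13% of 2067. At 1 base they were 8% and 0.968%, and at 3 bases 0% and 2.03%. The pairs with both members in both libraries, named after their values were seen, were RPSA 39450192 and 39450194 (mean levels 0.303 and 0.398), RPS6 19378881 and 19378883 (0.261 and 0.394), RPL8 146015787 and 146015789 (0.213 and 0.203), RPS3 75113420 and 75113422 (0.181 and 0.171), RPS3 75111800 and 75111802 (0.135 and 0.108) and RPL3 39711377 and 39711379 (0.111 and 0.124). With REPAIR.t1 and dCas13d-ADAR, 10 of their 77 sites (13.0%) lay next to another and 5 (6.49%) 2 bases from one. The shares in the whole series were 3.36% and 1.34%. Pairs at any distance are more frequent where sites are dense, and DECOR sites in the spans lay at a median of 14 bases from the next, against 140 over its whole list.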

How the data were processed

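The authors deposited 1 list per library with chromosome, position and the A-to-G rate, named so per the file headers and held as a fraction. The submitters' processing notes name cutadapt, STAR 2.6.1b, hg19 and GRCh37, with no role. For the site caller, its thresholds and any coverage minimum the entry is "not given in the sources used here". The lowest listed level is 0.0597. Depth is unknown, so no counting error is attached.

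Sites inside the 10 spans were taken from all 14 lists. The log2 odds of each level (0.01 added to numerator and denominator) entered limma 3.58.1 (R 4.3.3) over all sites listed by every library compared, the guide being a term where dCas13d-ADAR was set against REPAIR.t1, with Benjamini-Hochberg adjustment over all sites; the test was tried on simulated data. Other steps used Python 3.11.15 and pandas 2.3.3.

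The members, spans and lists were chosen with earlier results of these data known. Named sites are, per gene, the 2 in most libraries, those common to DECOR and another editor, the highest in both DECOR libraries, sites passing a test, and the 5 largest differences each way between dCas13d-ADAR and REPAIR.t1. Alternatives were minimum levels, sites in both libraries of a group, other scales, guides apart, sites missing from 1 library, each library left out and the replicate number as a block. The other ribosomal protein genes were not analysed here, since no annotation of hg19 was used.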

Additional observations from a re-analysis of the deposited data

Results flagged for a closer look

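Among the 4 libraries of an editor, the levels at 3 of 42 values checked had 1 library far from the others, and chance marks about 1 in 20 such sets. At RPS15A 18799396, REPAIR.t1 EZH2_A22 replicate 1 gave 0.283 where the other 3 libraries gave 0.137 to 0.148. At RPSA 39450103, dCas13d-ADAR NT replicate 1 gave 0.169 and the others 0.267 to 0.286. At RPSA 39450133, dCas13d-ADAR EZH2 replicate 2 gave 0.143 and the others 0.254 to 0.273. The libraries differ between these sites.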

How the results depend on the processing

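Of the 17 sites in the spans tested between dCas13d-ADAR and REPAIR.t1, 0 passed in limma under every alternative run. Over all sites 44 of 609 passed, against 2 of 1046 with NT libraries alone and 0 of 1101 with EZH2 libraries alone. In those 2 fits 168 and 114 had an unadjusted limma p below 0.05. With 1 library left out, 10 to 42 of 653 to 714 passed, fewest without dCas13d-ADAR NT replicate 1. Fits on fewer libraries let in more sites, so these counts rest on unlike sets of sites. With NT libraries alone RPL8 146015798 turned to 0.20 log2 units, and it ranged from -0.28 to 0.0061 with 1 library left out; with EZH2 libraries alone RPS6 19378447 turned to -0.0269. Between DECOR and dCas13d-ADAR, 12 of 25 sites passed, and 7 to 14 with 1 library left out, lowest without dCas13d-ADAR NT replicate 1. In the spans 5 of 5 tested sites passed, against 3 of 7 with sites missing from at most 1 library, 2 of 5 on untransformed levels and 2 to 3 with 1 library left out, when 5 or 6 were tested. Of the original 5, the numbers passing were 2, 2 and 1 to 3. A mean level of at least 0.2 left under 20 sites there, so it was not run. The guide comparisons passed at 0 sites under all alternatives in limma (61 and 87 at an unadjusted p below 0.05 in the fits reported). A lone library of a side is assumed to vary like the others.

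The labels number the libraries alike, and do not say whether same-numbered libraries belong together. Deviations of same-numbered libraries correlated at -0.0146 to 0.0553 over 609 sites. Depth is unknown and counting error could hide a shared deviation, so these values cannot decide whether the libraries are paired. With the replicate number as a block 44 sites passed between dCas13d-ADAR and REPAIR.t1, and 0 in each guide comparison.

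Site numbers per library became 13.3 (REPAIR.t1), 16.0 (dCas13d-ADAR) and 15.0 (DECOR) at a level of at least 0.2, 36.3 for dCas13d-ADAR at 0.1, and 29.5, 29.5 and 50 for sites in both libraries of a group. Median levels became 0.284, 0.273 and 0.236 at 0.2, 0.187 for dCas13d-ADAR at 0.1, and 0.185, 0.198 and 0.165 for sites in both libraries. The cut on the level raises medians by construction.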
